A study of Mus musculus with 10 samples.

Results

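The enzymes that close the rings of the sterol and then turn it into cholesterol, lanosterol synthase and the 8 that act after it, were examined in mouse liver on the Western diet with sugar water. The genes were chosen by name and in pathway order, with earlier results of these data known: Lss, Cyp51, Tm7sf2, Msmo1, Nsdhl, Hsd17b7, Ebp, Sc5d and Dhcr7. These 9 of the 19057 annotated genes had 15 of the 45281 probes, and 14 of those probes, covering all 9 genes, were bright enough to be tested. Liver RNA had been hybridised to Illumina mouse bead arrays, 5 from mice given a high-fat Western diet and a fructose-glucose drink (WD SW) for 8 weeks and 5 from mice given chow (CD) for the same time. All mice were of the strain 129S1/SvImJ;C57Bl/6J (129/B6), which the study describes as an isogenic cross of those inbred strains, and its account of the diets names male animals that were 8 to 12 weeks old when feeding began. The Western diet was rich in fat and contained cholesterol, and the chow-fed mice drank plain water, so that fat, cholesterol and sugar differed together between the diets and their shares cannot be told apart.

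Cholesterol is made in the endoplasmic reticulum of the hepatocyte, which supplies it for membranes, bile acids and lipoproteins. Lanosterol, the first sterol of the route, carries extra methyl groups that are removed oxidatively, and double bonds of the ring and side chain are moved and reduced. The genes of the route are known targets of SREBP-2, the product of Srebf2. When sterols are scarce, the escort protein SCAP carries SREBP-2 to the Golgi, where proteases release its active part, and when sterols are plentiful INSIG proteins hold the complex back. SREBP-2 is a weak activator alone and is known to work beside NF-Y, which binds CCAAT boxes, and Sp1, which binds GC boxes.

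The promoters of the 3 genes whose products remove the methyl groups at carbon 4 of the sterol, all lower on WD SW, are printed with those of Ebp and Sc5d, which were not called, so that both kinds can be compared. Each is the 180 bases before the annotated start in the RefSeq annotation of GRCm38.p6, read 5′ to 3′ along the strand of the gene, with each CCAAT box, or ATTGG where it lies on the other strand, in capitals. The windows are Msmo1 at chr8:64733579-64733758 (minus strand), Nsdhl at chrX:72918341-72918520 (plus strand), Hsd17b7 at chr1:169969206-169969385 (minus strand), Ebp at chrX:8193513-8193692 (minus strand) and Sc5d at chr9:42264301-42264480 (minus strand).
Msmo1: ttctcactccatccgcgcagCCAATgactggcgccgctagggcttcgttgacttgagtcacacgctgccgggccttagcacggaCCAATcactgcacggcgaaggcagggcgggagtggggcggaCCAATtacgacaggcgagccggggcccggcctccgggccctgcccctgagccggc
Nsdhl: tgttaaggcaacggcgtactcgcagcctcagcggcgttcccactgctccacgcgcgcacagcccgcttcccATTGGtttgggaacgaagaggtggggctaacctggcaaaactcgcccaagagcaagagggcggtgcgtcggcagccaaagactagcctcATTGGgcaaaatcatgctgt
Hsd17b7: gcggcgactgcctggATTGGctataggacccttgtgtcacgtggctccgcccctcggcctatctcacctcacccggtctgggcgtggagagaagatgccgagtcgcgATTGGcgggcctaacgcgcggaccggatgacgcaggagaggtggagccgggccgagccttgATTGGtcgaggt
Ebp: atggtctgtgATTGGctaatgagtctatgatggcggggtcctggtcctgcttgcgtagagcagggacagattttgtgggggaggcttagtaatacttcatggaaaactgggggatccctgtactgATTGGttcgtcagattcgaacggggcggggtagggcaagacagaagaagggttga
Sc5d: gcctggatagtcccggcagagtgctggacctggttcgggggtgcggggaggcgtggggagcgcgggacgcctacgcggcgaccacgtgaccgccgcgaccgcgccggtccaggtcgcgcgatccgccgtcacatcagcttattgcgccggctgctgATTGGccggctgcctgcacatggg

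Motifs were searched on both strands of a wider window, 250 bases before to 50 after each start. All 9 genes were in the RefSeq table, with 11 windows between them because Dhcr7 had 3 starts. A CCAAT box was found in at least 1 window of each of the 9 genes (9 of the 11 windows), against 37.4% of 32851 promoters and 43.0% of the 8269 tested genes that had a window. The GC box GGGCGG was found for 9 of 9 genes (10 of 11 windows), against 35.7% of all promoters and 65.7% of tested genes. The sterol response element of the LDL receptor type (SRE-1) was in 0 of the 11 windows and in 0.0913% of all promoters. Its shorter core TCACNCCAC, which that element contains, was in 0 windows of these genes and 1.24% of all, the related SRE-2 in 0 and 0.24%, and the palindrome TCACGTGA in 0 and 0.974%. These are matches of letters in a fixed window, and sites farther out or spelled otherwise were not searched. The called and the uncalled genes shared the boxes. Ebp, with 2 CCAAT boxes at −170 and −55 bases from its start, was not called, while Lss and Cyp51, with 1 box each, were. Of the other called genes, Msmo1 had boxes at −160, −96 and −55, and Nsdhl at −109, −20, 9 and 35. Hsd17b7 had them at −165, −73 and −12, and Dhcr7 at −85 and −49 of start 3. The uncalled Tm7sf2 and Sc5d had 1 box each, at −47 and −24. Whether the number of boxes went with the calls was not tested.

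**Figure D1:**
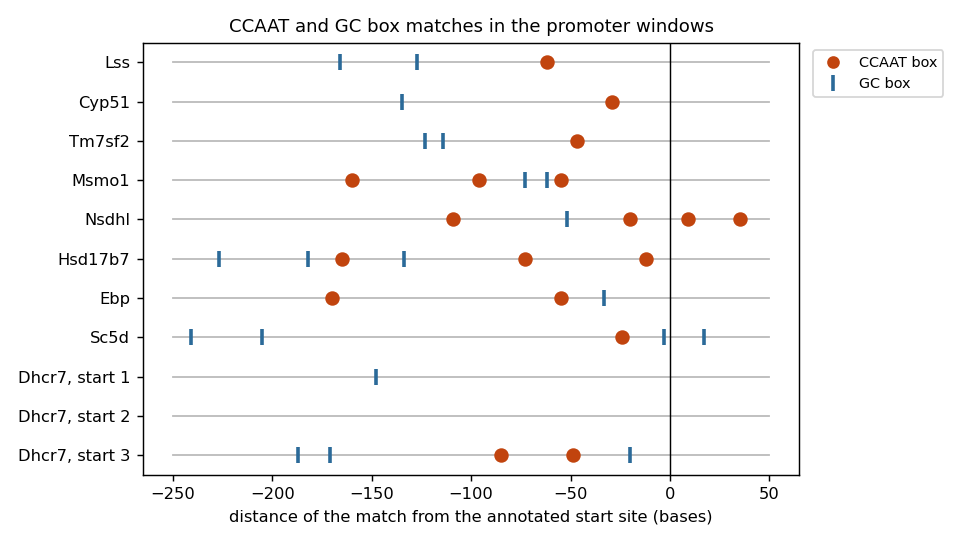
Position of each CCAAT box (circles) and GC box (bars) in the promoter windows of the 9 genes, in bases from the annotated start (vertical line), with the 3 starts of Dhcr7 drawn apart. All 9 genes have both motifs in at least 1 window, and the second start of Dhcr7 has neither.

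The steps from lanosterol synthase to the removal of the methyl groups at carbon 4 were lower in WD SW-fed than in CD-fed livers, with Tm7sf2 uncalled, and of the last 3 genes Dhcr7 was lower while Ebp and Sc5d were not called. Each gene was represented by its brightest probe, and a gene was called where limma's adjusted p, taken over all 17364 tested probes, was under 0.05. On that rule 6 of the 9 genes fell (Lss, Cyp51, Msmo1, Nsdhl, Hsd17b7 and Dhcr7) and 0 rose, while 15.4% of all 10184 tested genes fell and 14.5% rose. All 5 WD SW arrays lay below all 5 CD arrays for 4 of the 9 genes (Lss, Msmo1, Nsdhl and Hsd17b7), as they did for 10.3% of all genes, and 0 of the 9 genes showed the opposite separation, which 9.36% of all genes did. The median difference of the 9 genes was −1.31 on the log2 scale, against −0.05 over all genes, and 5 of the 9 fell by more than 1 log2 unit, a size that 2.25% of all genes reached. In bulk tissue a loss of hepatocytes and a lower level in each hepatocyte cannot be told apart.

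**Figure D2:**
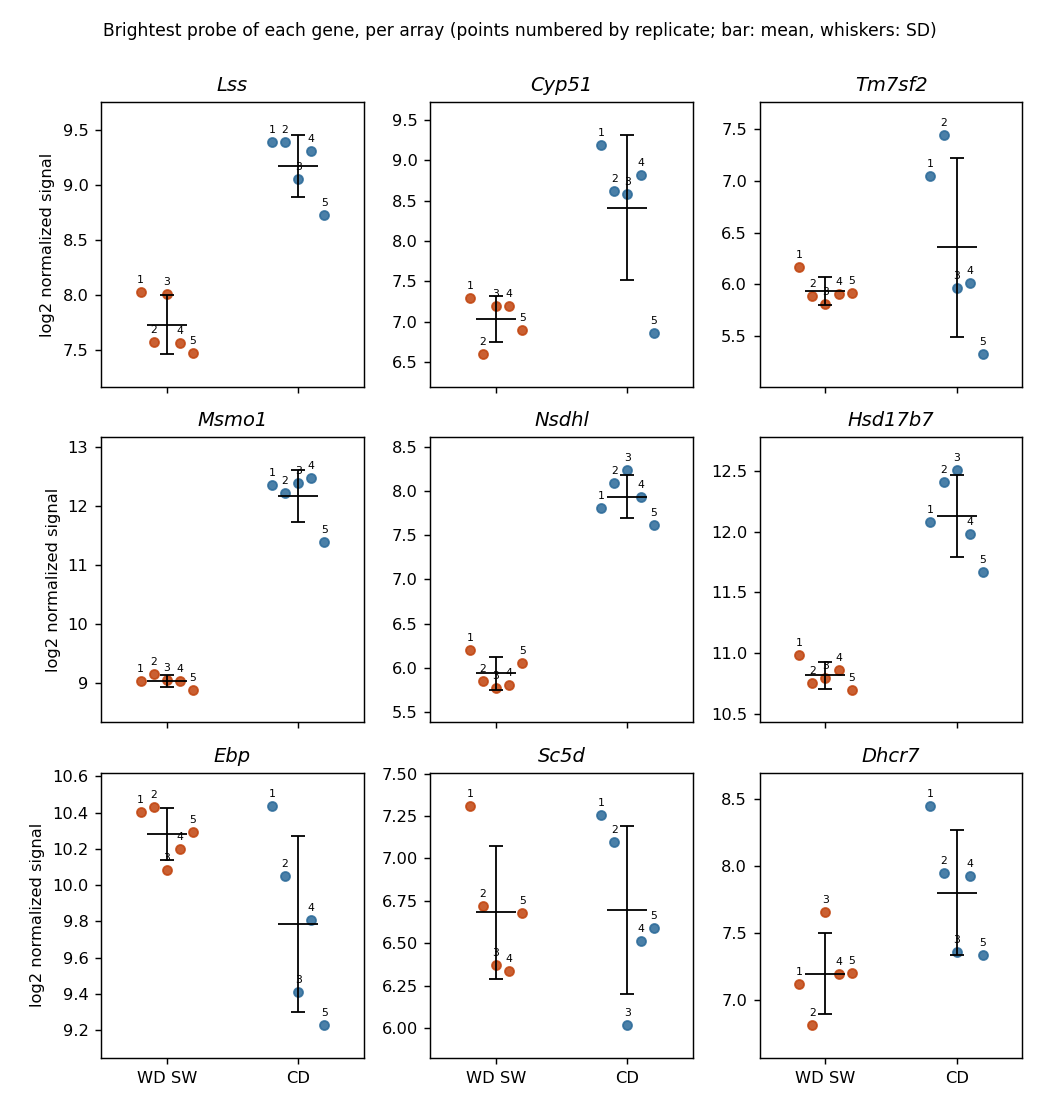
Log2 normalized signal of the brightest probe of each of the 9 genes on every array, WD SW left of CD, with bars at the mean and ± 1 SD (n = 5 each). Msmo1, Nsdhl, Hsd17b7 and Lss show no overlap between the diets, Cyp51 overlaps through 1 CD array, and Ebp and Sc5d overlap.

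All values that follow are log2 normalized signals in the order of replicates 1 to 5, and differences are WD SW minus CD with their standard error. Signals of different probes are not on a common scale. Their levels were used to choose the brightest probe of each gene, and were not read as differences between genes. Lss encodes lanosterol synthase, which folds oxidosqualene into the ring system. Its brightest probe (ILMN_2614161) read 8.03, 7.57, 8.01, 7.57 and 7.48 in WD SW-fed livers, against 9.39, 9.39, 9.05, 9.30 and 8.73 in CD-fed livers. The highest WD SW array stayed below the lowest CD array, and Lss fell by 1.44 ± 0.17 (limma adjusted p = 3.77e-05), which is 2.71-fold lower. A dimmer Lss probe (ILMN_1228641) averaged 5.25 ± 0.16 on WD SW and 5.81 ± 0.45 on CD (SD, n = 5 each), overlapped between the diets and differed by −0.55 ± 0.19 (limma adjusted p = 0.0382). That call was lost in 14 of 23 alternatives. It was lost without WD SW replicate 1, 2, 4 or 5, or CD replicate 2, 3 or 5, with adjusted p between 0.0593 and 0.092. The same held with the number in the sample titles as a random block (adjusted p = 0.0728). With median scaling over all probes the difference was −0.23 (adjusted p = 0.306), and with array brightness as a covariate −0.70 (adjusted p = 0.226). Changes to the background correction or the filter put its adjusted p between 0.0501 and 0.0547 where the call was lost. The third Lss probe (ILMN_2444540) was above background on 0 WD SW arrays and 1 CD array, and it was not tested. When arrays were scaled to their median instead of quantile normalized, the difference of the brightest Lss probe was −0.76.

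Cyp51 encodes lanosterol 14-alpha-demethylase, the cytochrome P450 that removes the first methyl group. Its probe (ILMN_2688075) read 7.29, 6.60, 7.20, 7.19 and 6.89 in WD SW-fed livers, against 9.19, 8.62, 8.58, 8.82 and 6.86 in CD-fed livers. The other 4 CD arrays lay well above all WD SW arrays, and CD replicate 5 lay among them. Cyp51 fell by 1.38 ± 0.33 (limma adjusted p = 0.00585), 2.60-fold lower, and the difference was −1.77 without CD replicate 5. The call did not hold with median scaling over all probes (−0.66, adjusted p = 0.215), and against CD replicate 1 alone the difference was −2.15.

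Tm7sf2 encodes the sterol reductase that acts on the product of Cyp51, a step that Lbr, the lamin B receptor, can also carry out. The Tm7sf2 probe (ILMN_1241333) read 6.17, 5.89, 5.81, 5.91 and 5.92 on WD SW, against 7.05, 7.45, 5.97, 6.01 and 5.33 on CD. CD replicates 1 and 2 were high, and the other 3 CD arrays lay near or below the WD SW arrays. The difference was −0.42 ± 0.31 (limma adjusted p = 0.321), with a 95% interval of −1.08 to 0.24, so that a 2-fold decrease was not excluded by these arrays. Against CD replicate 1 alone it was called (−1.11, adjusted p = 0.0116), and with median scaling over all probes its sign turned (0.097). Lbr read 7.70, 7.77, 7.98, 7.51 and 7.57 on WD SW, against 8.78, 8.77, 8.99, 8.81 and 8.20 on CD. Its diets did not overlap, and Lbr fell by 1.0 ± 0.16 (limma adjusted p = 0.00037), a call not kept with median scaling over all probes (−0.29, adjusted p = 0.297).

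Msmo1, Nsdhl and Hsd17b7 encode the complex that strips the methyl groups from carbon 4, and all of them fell. Msmo1, the methylsterol monooxygenase that oxidises these groups, had the widest gap of the 9 genes. Its probe (ILMN_2823778) read 9.03, 9.16, 9.05, 9.03 and 8.89 in WD SW-fed livers, against 12.36, 12.22, 12.40, 12.47 and 11.40 in CD-fed livers. The WD SW arrays lay within 0.3 log2 units of each other, and even the lowest CD array was more than 2 units above the highest of them. Msmo1 fell by 3.14 ± 0.19 (limma adjusted p = 1.89e-07), 8.79-fold lower and rank 9 of the 10184 genes counted from the lowest difference, and over all 24 alternatives the difference ran from −3.33 to −2.70. The gap was already present in the signals before normalization, at 674, 734, 755, 852 and 883 in WD SW-fed livers in ascending order, against 1915, 3587, 3855, 4229 and 7542 in CD-fed livers. The brightest Nsdhl probe was also separated before normalization (124 to 165 on WD SW, 178 to 347 on CD). Those of Lss (283 to 465 on WD SW, 321 to 957 on CD) and Hsd17b7 (2176 to 2844 on WD SW, 2294 to 6179 on CD) overlapped. Their separation appeared only after normalization.

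Nsdhl, the dehydrogenase that releases the oxidised carbon, was read by 4 probes, and only the brightest fell. That probe (ILMN_2958207) read 6.20, 5.85, 5.77, 5.80 and 6.05 in WD SW-fed livers, against 7.80, 8.09, 8.23, 7.93 and 7.62 in CD-fed livers. The diets were separated by more than 1 log2 unit, and the probe fell by 2.0 ± 0.15 (limma adjusted p = 1.01e-06), 4.0-fold lower. The size of the difference depended on the background step, at −1.55 with a normexp offset of 50 and −1.36 without background correction. The other 3 Nsdhl probes lay between 4.76 and 6.21 on every array, a range that also held the WD SW values of the brightest probe. These levels are close to the lowest that counted as above background, and the other 3 probes did not pass the test. Their differences were 0.14 ± 0.23 for ILMN_2594521 (limma adjusted p = 0.680), 0.05 ± 0.19 for ILMN_2594525 (adjusted p = 0.869) and 0.18 ± 0.15 for ILMN_2725402 (adjusted p = 0.394). With median scaling over all probes ILMN_2725402 was called higher on WD SW (0.48, adjusted p = 0.0298), opposite to the brightest probe. With the 4 probes averaged, Nsdhl differed by −0.41 ± 0.15 and was not called (adjusted p = 0.0629), so the call of this gene rests on the choice of the brightest probe.

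Hsd17b7, the reductase that turns the resulting ketone into an alcohol, completes each cycle of demethylation. Its brightest probe (ILMN_1229529) read 10.99, 10.75, 10.80, 10.86 and 10.70 in WD SW-fed livers, against 12.08, 12.41, 12.50, 11.98 and 11.67 in CD-fed livers. The diets did not overlap, and Hsd17b7 fell by 1.31 ± 0.16 (limma adjusted p = 5.24e-05), 2.47-fold lower. A second probe (ILMN_2581059), far dimmer, read 4.86, 5.16, 5.01, 5.17 and 5.34 on WD SW, against 6.30, 6.41, 5.95, 5.74 and 5.50 on CD. It did not overlap either and fell by 0.87 ± 0.18 (limma adjusted p = 0.00203). With the probes averaged, the difference was −1.09 ± 0.15, and Hsd17b7 kept its call in all 26 alternative counts of these genes.

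**Figure D3:**
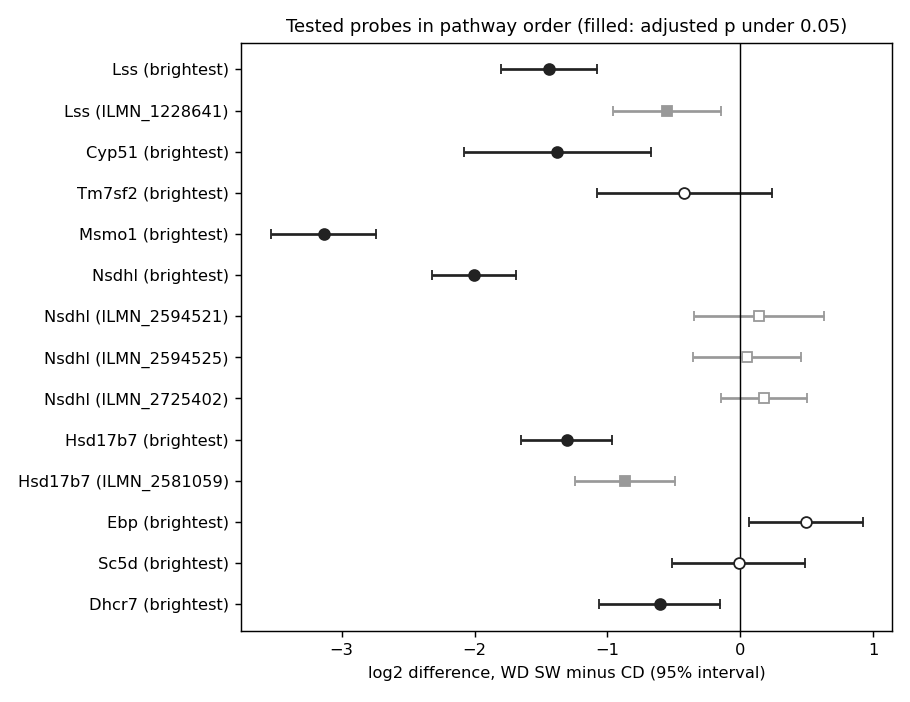
Log2 difference, WD SW minus CD, with its 95% interval for each of the 14 tested probes (circles, brightest probe of a gene; squares, its other probes), filled where the adjusted p was under 0.05. The brightest probes of Lss, Msmo1, Nsdhl and Hsd17b7 stand left of their own gene's dimmer probes where these exist, and the 3 dimmer Nsdhl probes lie within 0.2 of zero.

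Of the last 3 enzymes, 1 was called. Ebp, the sterol isomerase also known as emopamil binding protein, read 10.40, 10.43, 10.08, 10.20 and 10.30 in WD SW-fed livers, against 10.44, 10.05, 9.41, 9.81 and 9.23 in CD-fed livers (ILMN_2707043). Only CD replicates 1 and 2 reached the range of the WD SW arrays or came near it. The difference was 0.50 ± 0.20 and missed the threshold (limma adjusted p = 0.0726), with a 95% interval of 0.07 to 0.92 before adjustment. The direction of Ebp was not settled. Without CD replicate 1 the gene was called higher (0.66, adjusted p = 0.0102), as with median scaling over all probes (1.04, adjusted p = 0.0147), but the difference was −0.19 with array brightness as a covariate and −0.16 against CD replicate 1 alone.

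Sc5d, the desaturase that introduces the double bond that cholesterol keeps, read 7.31, 6.72, 6.37, 6.34 and 6.68 on WD SW, against 7.26, 7.10, 6.02, 6.51 and 6.59 on CD (ILMN_1225039). The diets covered the same range, and the difference was −0.01 ± 0.24 (limma adjusted p = 0.975), with a 95% interval of −0.51 to 0.49. It moved with the setting, to −0.57 against CD replicate 1 alone and 0.69 with median scaling over all probes, and was called in neither. Dhcr7 reduces 7-dehydrocholesterol, also the precursor of vitamin D, to cholesterol. It read 7.12, 6.81, 7.66, 7.19 and 7.20 on WD SW, against 8.45, 7.95, 7.36, 7.93 and 7.33 on CD (ILMN_2660471). CD replicates 3 and 5 lay within the WD SW range. Dhcr7 fell by 0.61 ± 0.21 (limma adjusted p = 0.0427), 1.52-fold lower. The call was lost without WD SW replicate 1, 2, 4 or 5, or CD replicate 1, 2 or 4, with adjusted p between 0.0729 and 0.103, and with the authors' normalized values (−0.45, adjusted p = 0.0617), and median scaling over all probes turned the sign (0.13). The fall was larger against CD replicate 1 alone (−1.26, adjusted p = 0.0227) and with array brightness as a covariate, where it was not called (−1.12, adjusted p = 0.0624).

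The CD arrays were not alike for these genes. The mean of the 9 genes per array ran from 7.75 to 8.06 in WD SW-fed livers (SD 0.12, n = 5). In CD-fed livers it ran from 8.31 to 9.33 (SD 0.41, n = 5), a wider spread. The CD arrays were also less alike over all tested probes (correlation 0.959 to 0.980, against 0.981 to 0.988 within WD SW). Whether other genes spread as widely as these 9 on the CD arrays was not examined. CD replicate 5 was the lowest CD array for 8 of the 9 genes, all but Sc5d, whose lowest was CD replicate 3. It was also the lowest for 5 of 6 other cholesterol synthesis genes, against 20.7% of all genes tested and 13.4% of the 1570 genes called lower. Even so, the mean of the 9 genes on CD replicate 5 stood above that on each WD SW array. Leaving it out gave 6 of 9 genes called lower, against 13.9% of all genes in that fit, with Msmo1 at −3.33 and Nsdhl at −2.08. CD replicate 5 was also the only array with the number 14 in its sample title, and the meaning of that number is not given.

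**Figure D4:**
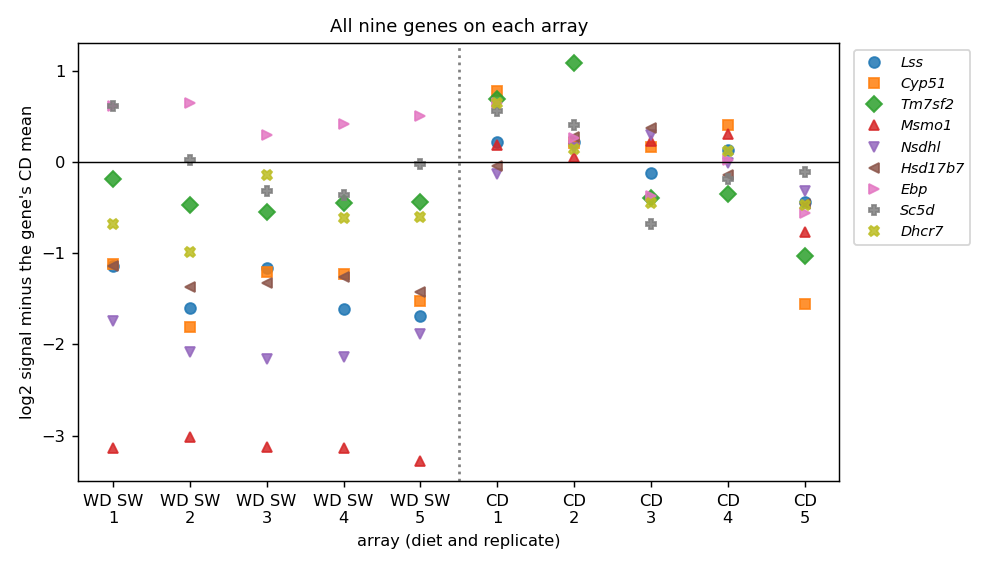
Log2 signal of each of the 9 genes minus that gene's mean over the CD arrays, by array, with WD SW left of the dotted line and CD right of it. On CD replicate 5 the brightest probe of Cyp51 reaches the level of the WD SW arrays, and Msmo1 stays more than 2 units above its own.

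Array brightness moved with diet. The 95th percentile of the unnormalized signal was 870 to 1023 on the WD SW arrays and 921 on CD replicate 1, but 403 to 548 on CD replicates 2 to 5. With that percentile as a covariate, 5 of the 9 genes were called lower (Lss at −1.68, Cyp51 at −2.06, Msmo1 at −3.30, Nsdhl at −1.97 and Hsd17b7 at −1.38), while the share of all genes called lower was 1.99%. Tm7sf2 (−1.38, adjusted p = 0.074), Dhcr7 (−1.12, adjusted p = 0.0624) and Sc5d (−0.74, adjusted p = 0.200) were not called there, at differences farther below zero than without the covariate. Standard errors were larger in this fit, for the brightest Lss probe 0.27 against 0.17. CD replicate 1 was the only CD array within the brightness range of the WD SW arrays. This fit therefore leaned on that array, and is no separate check from the comparison with CD replicate 1 alone. Against CD replicate 1 alone, the bright control, 7 genes were lower, Tm7sf2 among them, with 3.99% of all genes, in a fit that assumes this lone array to vary as the WD SW arrays do. Scaling also mattered. Among the 5416 probes called in either direction 55.0% were higher on WD SW, but 96.1% were higher after median scaling over all probes, which put the median of the tested probes at 0.40, and 27.4% after median scaling over the tested probes, an alternative chosen after seeing the data, which put it at −0.24. Lss, Msmo1, Nsdhl and Hsd17b7 were lower under each of these scalings. Of all genes, 15.4% were called lower in the main setting and 1.99% with median scaling over all probes. With median scaling over the tested probes that share was 32.9%.

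**Figure D5:**
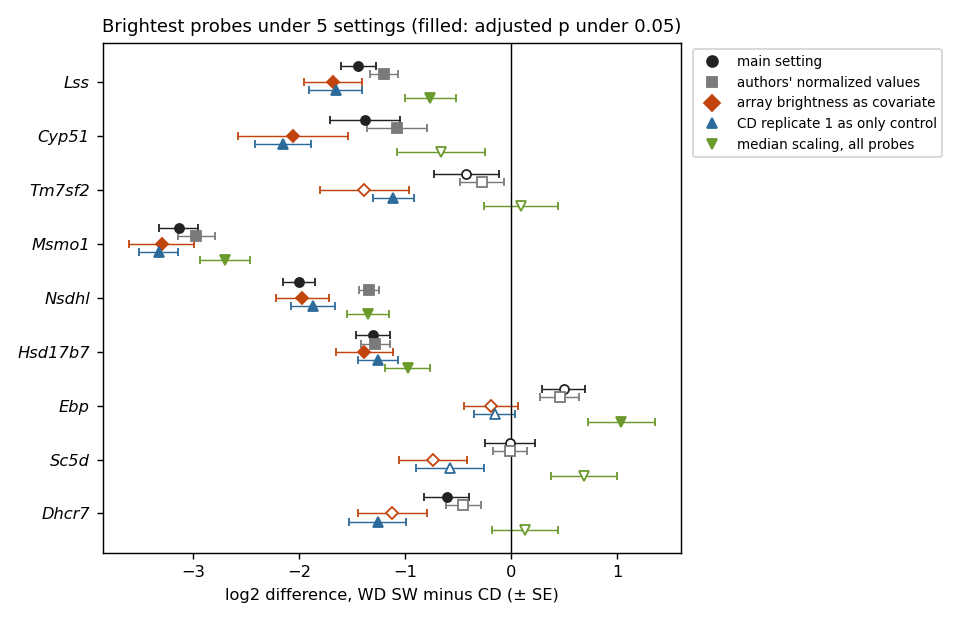
Log2 difference, WD SW minus CD, with its standard error for the brightest probe of each of the 9 genes under 5 settings, filled where the adjusted p was under 0.05. Lss, Msmo1, Nsdhl and Hsd17b7 stay filled and left of zero throughout, whereas Tm7sf2, Ebp, Sc5d and Dhcr7 cross zero between settings.

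Cell type markers were read beside these differences. Of 8 hepatocyte markers, all tested, Hnf4a, Alb and Tat fell and Apob rose, and their mean per array was 11.13 to 11.47 on WD SW and 11.09 to 11.56 on CD. Of 8 stellate cell and fibroblast markers, all tested, Dcn, Col3a1 and Col1a1 rose, with means of 6.83 to 7.36 on WD SW and 6.68 to 7.03 on CD. Macrophage markers had 1 rise (Csf1r) among the 5 of 8 tested, with means of 7.84 to 8.92 on WD SW and 7.05 to 8.77 on CD, while Cd68, Cd5l and Marco did not pass the filter. Among 6 endothelial markers Lyve1 rose and Kdr fell, with means of 7.12 to 7.27 on WD SW and 6.66 to 7.17 on CD. Of 5 lymphocyte markers 2 were tested and 0 called, with means of 5.12 to 5.42 on WD SW and 4.77 to 5.29 on CD, and of 5 cholangiocyte markers only Sox9 was tested, which fell, with 8.08 to 8.92 on WD SW and 9.84 to 11.07 on CD. The part of these shifts in the enzyme differences was not tested.

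Genes around the route were read from a list of 26, of which 18 had a probe, 15 were tested, 7 fell and 3 rose. Among the other synthesis genes, 4 of the 6 tested fell and 0 rose, with a median of −1.0. Sqle, squalene epoxidase, which makes the substrate of Lss, read 5.76, 5.89, 7.08, 5.79 and 5.98 on WD SW, against 10.50, 10.76, 10.94, 11.20 and 9.54 on CD. It fell by 4.49 ± 0.30 (limma adjusted p = 4.93e-07). Idi1, the isomerase of the isoprene units, read 6.63, 6.52, 6.45, 6.10 and 6.16 on WD SW, against 10.29, 9.54, 10.34, 10.07 and 9.79 on CD. It fell by 3.63 ± 0.17 (limma adjusted p = 3.94e-08). Both had larger differences than Msmo1 and no overlap between diets. Named here after their values were seen, Fdps, farnesyl diphosphate synthase, fell by 1.0 ± 0.27 (limma adjusted p = 0.0117), while Pmvk (−0.51, adjusted p = 0.0779) and Mvd (−0.86, adjusted p = 0.107), of the mevalonate steps, were not called.

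The sterol sensing genes did not move as one. Of 6 tested, 3 fell and 2 rose. Scap fell by 1.23 ± 0.14 (limma adjusted p = 3.85e-05), at 7.22, 7.53, 7.55, 7.01 and 7.22 on WD SW, against 8.47, 8.39, 8.63, 8.41 and 8.79 on CD. Srebf2 fell by 1.17 ± 0.15 (limma adjusted p = 9.68e-05), at 5.42, 5.63, 5.93, 5.74 and 5.74 on WD SW, against 6.80, 6.98, 6.42, 7.11 and 6.98 on CD. Neither overlapped between the diets, though a second probe of each gave a smaller difference, −0.48 for Scap and −0.33 for Srebf2. Median scaling over all probes put Scap at −0.52 and Srebf2 at −0.57, both still called. Insig2, a retention protein of the SCAP complex, rose by 1.05 ± 0.21 (limma adjusted p = 0.00166), at 12.22, 11.97, 11.21, 11.88 and 12.12 on WD SW, against 11.11, 11.01, 11.12, 10.56 and 10.35 on CD. Its 3 tested probes ran from 0.23 to 1.14, those of Mbtps1 from 0.50 to 1.23 and those of Cyb5r3 from 0.36 to 0.78. Mbtps1, the first of the Golgi proteases, rose by 0.58 ± 0.18 (limma adjusted p = 0.0222), and Cyb5r3, the reductase that feeds electrons to cytochrome b5, rose by 0.66 ± 0.21 (limma adjusted p = 0.0252), the only call among 3 tested genes of electron supply. These 3 rises did not hold with brightness as a covariate (Insig2 0.61, adjusted p = 0.297, Mbtps1 0.49, adjusted p = 0.376, Cyb5r3 0.21, adjusted p = 0.756). Mbtps1 was also not called without WD SW replicate 1, 4 or 5 or CD replicate 3 or 5 (0.46 to 0.54), and Cyb5r3 not without WD SW replicate 4 or 5 or CD replicate 3 or 5 (0.54 to 0.61). Of the genes named after their values were seen, Stard4, a sterol carrier, fell by 1.19 ± 0.14 (limma adjusted p = 3.44e-05), and Insig1 differed by 0.06 ± 0.24 (adjusted p = 0.865).

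Among all tested genes, those with the array profile most like the median profile of the 9 enzymes were Tmem30a (root mean square distance 0.189 log2 units over the 10 arrays), Rprd1a (0.207), Lbr (0.218), Stk38l (0.227) and Gpr108 (0.254). The enzymes themselves define that median profile, so their own distances to it are no separate result. Among them Hsd17b7 (0.205) and Lss (0.213) lay as close, and Msmo1 (1.02), with the largest difference, lay farthest. These distances are descriptions of the same 10 arrays.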

How the data were processed

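The authors deposited 2 tables of liver RNA on Illumina mouse bead arrays (10 arrays, 5 WD SW and 5 CD). The first holds probe signals as linear intensity before normalization and without background subtraction, and was the starting point. The second holds intensity normalized by the authors, by a method not given in the sources used here, and served as an alternative after log2 transformation. Within each array the tables had nearly the same order of probes (Spearman rho from 0.99998915 to 0.99999561). Scanner settings and bead summary are also not given in the sources used here. Diets were taken from the sample labels.

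Signals were background corrected with normexp (offset 16), transformed to log2 and quantile normalized (limma 3.58.1, R 4.3.3). Quantile normalization removes a shift common to most probes. A probe counted as above background where it exceeded the mode of the array's log2 signals (kernel bandwidth 0.02) at a one-sided normal p of 0.05, and was tested where it did so on at least 5 arrays. This left 17364 probes, of which 2515 lacked a single gene symbol. Symbols came from the platform annotation (34885 probes with 1 symbol), and the probe with the highest mean stood for each of 10184 genes. WD SW minus CD was fitted by limma without covariates, two-sided, with Benjamini-Hochberg adjustment over all probes. The number of arrays limits the precision. The pipeline was tested on simulated data.

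The 9 genes, the pathway and marker lists, and the tests were chosen with earlier results of these data known. Named were all probes of the 9 genes, and from the pathway list the 3 genes called with the largest decrease, the 3 with the largest increase, Lbr, Srebf2 and a gene not reported here, besides the 5 genes of most similar profile. The labels name separate samples and the study speaks of its arrays as mice, so the p-values refer to the scatter among mice within a diet. Replicates were numbered in order of listing and pair nothing. The number in the sample titles was 5 or 7 on WD SW arrays and 12, 13 or 14 on CD arrays. No number was shared between the diets, so differences between numbers and between diets cannot be fully told apart. Array brightness differed with diet (above-background share 41.9 to 45.5% on WD SW, 40.9% on CD replicate 1 and 33.4 to 36.5% on the other CD arrays). Correlation between arrays was 0.981 to 0.988 within WD SW and 0.959 to 0.980 within CD, and no array duplicated another. Alternatives covered background correction, scaling, the authors' table, filters, variance model, array weights, brightness as a covariate, choice of control arrays, the number in the sample titles as a random block, probe averaging and leaving out each array. Promoter windows came from RefSeq (GRCm38.p6).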

Additional observations from a re-analysis of the deposited data

Results flagged for a closer look

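Of 46 sets of 5 values examined for a single array far from the rest, 5 were marked, and chance marks about 1 in 20. On CD replicate 5, Cyp51 read 6.86 with the nearest CD array at 8.58, Msmo1 read 11.40 with the nearest at 12.22, and Lbr read 8.20 with the nearest at 8.77. On WD SW replicate 1, the dim Nsdhl probe ILMN_2594521 read 6.21, with the nearest WD SW array at 5.45. On WD SW replicate 3, Sqle read 7.08, with the nearest WD SW array at 5.98. Without CD replicate 5 the differences (WD SW minus CD) were −1.77 for Cyp51, −3.33 for Msmo1 and −1.13 for Lbr, and without WD SW replicate 3 that of Sqle was −4.75. The cause was not tested.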

How the results depend on the processing

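The main setting called 5416 probes, against 823 once array brightness entered the model, 1587 when the sole control was CD replicate 1, 8200 with median scaling over the tested probes (chosen after seeing the data), and 4291 to 6039 when 1 array was left out. The count of the 9 genes called lower was 4 to 6 over the alternatives with more than 1 control array, and 5 to 6 with 1 array left out. The share of all genes called lower ran from 1.99% to 32.9% over the fits to probes. With 1 array left out it ran from 11.6% to 17.4%. Lss, Msmo1, Nsdhl and Hsd17b7 kept direction and call by their brightest probe in all 24 alternatives, with ranges of −1.68 to −0.76, −3.33 to −2.70, −2.08 to −1.34 and −1.49 to −0.97. Cyp51 lost its call in 1 and Dhcr7 in 14, with its sign turned in 1 more. Signs turned as follows, and the cause was not tested. With median scaling over all probes, Tm7sf2 was at 0.097, Sc5d at 0.69 and Dhcr7 at 0.13. With median scaling over the tested probes, Sc5d was at 0.033 and the dim Nsdhl probes ILMN_2594521, ILMN_2594525 and ILMN_2725402 at −0.24, −0.19 and −0.20. With array weights ILMN_2594525 was at −0.019. With brightness as a covariate ILMN_2594521 was at −0.22 and Ebp at −0.19, and against CD replicate 1 alone these were at −0.063 and −0.16. With 1 array left out, Sc5d ran from −0.18 to 0.13, ILMN_2594525 from −0.057 to 0.14 and ILMN_2594521 from −0.028 to 0.29. No paired analysis was possible because the labels give the diets no shared replicate numbers. The number in the titles, as a random block (correlation 0.207), left 4125 probes called and 5 of the 9 genes lower, against 11.1% of all genes, with Dhcr7 (−0.60, adjusted p = 0.0817) and the dim Lss probe ILMN_1228641 (−0.57, adjusted p = 0.0728) not called and Sc5d at 0.014. Dim probes near the background limit the differences that could be seen.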
